A study of Mus musculus with 6 samples.

Results

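The Wnt pathway genes described here are 47 of the 23726 gene models in a table of RNA counts from 6 mouse libraries of chemically induced skin cancer. They are all genes whose name is Wnt, Fzd, Sfrp or Dkk followed by a digit, together with Axin2, Lef1, Tcf7, Wif1, Sostdc1, Sost, Lrp5, Lrp6, Nkd1 and Frzb. By role there are 19 ligands, 12 receptors, 12 secreted antagonists and 4 targets or nuclear genes. The groups were healthy skin (1 whole biopsy), papilloma (2 biopsies of distinct lesions, numbered 1 and 2), tumour (1 biopsy), and the cultured lines mSCC-38 (1 library, described as highly tumorigenic) and mSCC-20 (1 library, described as non-tumorigenic). The papillomas and the tumour had been induced with DMBA, which mutates keratinocytes, and TPA, which promotes growth of the mutated cells, and both lines were isolated from tumours made in the same way. The strain, age and sex of the mice, and whether the 2 lines or the 2 papillomas came from different animals, are not known from the labels. Each line is a single cultured isolate, so a difference between mSCC-38 and mSCC-20 is a difference between 2 cultures.

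Wnt proteins are secreted, lipid-modified ligands. They bind Frizzled receptors (Fzd genes) and, for signalling through beta-catenin, the co-receptors Lrp5 and Lrp6, after which beta-catenin enters the nucleus and acts with the DNA-binding factors Lef1 and Tcf7 on targets such as Axin2 and Nkd1, which feed back as inhibitors. Secreted antagonists work outside the cell: Sfrp proteins, Frzb and Wif1 bind the ligands, while Dkk1, Dkk2, Dkk4, Sost and Sostdc1 act on the co-receptors. Dkk3 is not known for that action and is grouped with the antagonists here by its family name. In skin the pathway is known for starting hair follicles, for driving hair growth in each cycle and for regulating epidermal stem cells.

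Library totals ran from 25140489 counts in papilloma 1 to 42992597 in the tumour, and levels are in CPM, counts relative to library size as scaled by trimmed mean of M values (TMM), unless RPKM is named. Where a gene had 0 counts, a level of up to 3 counts is possible, equal to 0.0604 CPM for skin and 0.141 CPM for papilloma 1, the lowest and highest of the 6 libraries; floors and intervals cover counting error only. Replicate error can be seen for papilloma alone, since all other groups hold 1 library. p-values rest on the spread between the papillomas, which is pooled in part over genes and may be technical in part. The labels were checked against marker genes: the basal keratin genes Krt5 and Krt14 were at 3745 and 3054 CPM in mSCC-38 and 9195 and 6606 CPM in mSCC-20. The epithelial genes Cdh1, Epcam and Esrp1 were at 1.63, 3.26 and 0.392 CPM in mSCC-38, against 195, 196 and 60.8 CPM in mSCC-20, so that mSCC-38 held the basal keratins but little of these 3. Across the biopsies, 19 hair follicle genes summed to 22369 CPM in skin, 214 CPM in papilloma 1, 6456 CPM in papilloma 2 and 183 CPM in the tumour. Papilloma 2 thus held 28.9% of the skin level of these genes and papilloma 1 held 0.956%. Basal keratinocyte markers (7 genes) summed to 7913 CPM in skin, 35127 CPM in papilloma 1, 26591 CPM in papilloma 2 and 30063 CPM in the tumour, and 8 skeletal muscle markers to 10636, 1931, 1247 and 733 CPM in the same order. RNA integrity numbers, from the labels, were 7.5 for skin and 8.2 to 9.1 for the lesions. The part of cell content and RNA quality in the results below was not tested. In whole biopsies, fewer cells of a type and less RNA per cell cannot be told apart.

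**Figure D1:**
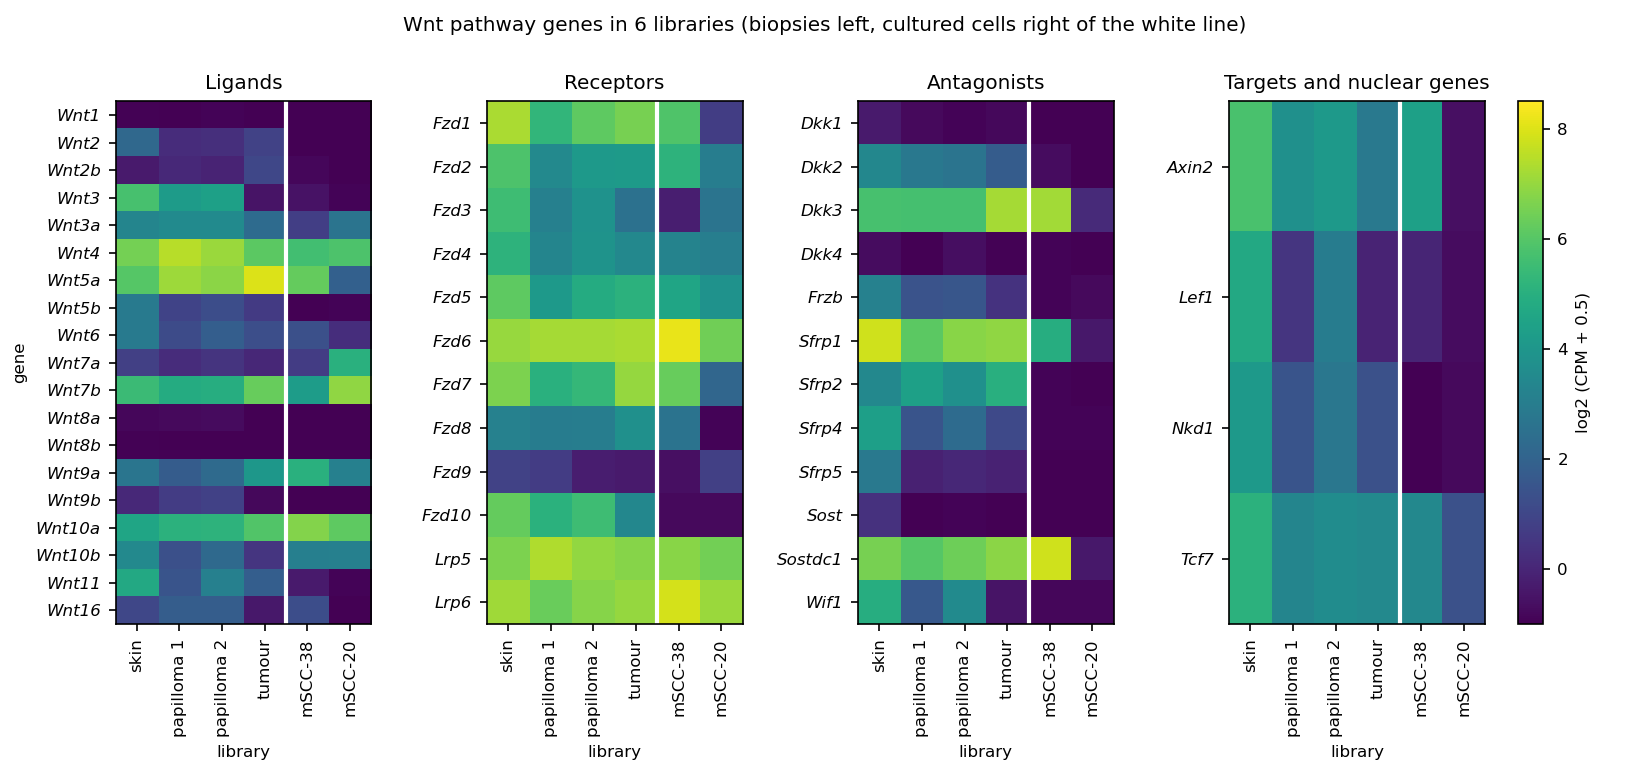
Level of each of the 47 genes (rows, grouped by role) in each library (columns), as log2 (CPM + 0.5) on a colour scale from dark (low) to yellow (high). The antagonist column of mSCC-20 is dark throughout, while Sostdc1 and Dkk3 are bright in mSCC-38.

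Wnt4 led the ligand RNA of skin and both papillomas, Wnt5a that of the tumour and Wnt10a that of both cultures. Compared per length, with the RPKM values deposited by the authors, which correct for gene length and library size, the 19 ligand genes summed to 128 RPKM in skin, 102 and 103 RPKM in papilloma 1 and papilloma 2, 136 RPKM in the tumour, 114 RPKM in mSCC-38 and 96.9 RPKM in mSCC-20. The sums lay close together, while their make-up differed. RPKM is scaled by total counts and not by TMM, whose factors were 1.20 for skin and 0.848 for papilloma 1. Small differences between RPKM sums of libraries, and their order, therefore depend on the scaling. In skin no ligand took more than 22.1% of the sum, the share of Wnt4, and 13 ligands reached 1 RPKM. Wnt4 was also first in the papillomas, with 39.5% and 32.5%. In the tumour Wnt5a was first with 43.8%, ahead of Wnt10a with 22.4%. Wnt10a led in both cultures, with 51.6% in mSCC-38 and 36.7% in mSCC-20. The second ligand was Wnt5a in mSCC-38 (16.7%) and Wnt7b in mSCC-20 (27.9%). These shares are descriptions of single libraries.

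**Figure D2:**
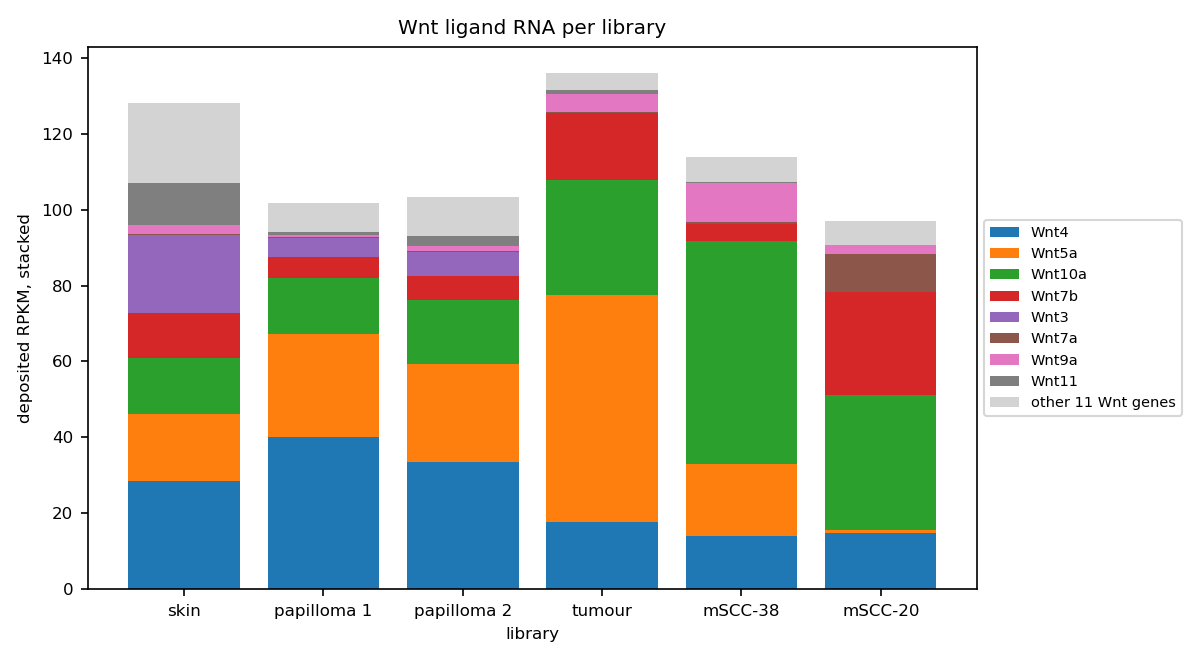
Stacked deposited RPKM of Wnt ligand genes (vertical axis) in each library (horizontal axis), with 8 genes coloured and the other 11 in grey. Wnt4 (blue, bottom) is the largest block in skin and both papillomas, Wnt5a (orange) in the tumour and Wnt10a (green) in both cultures.

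The comparison of papilloma with skin sets the benign lesion against the normal tissue. Of 43 pathway genes with enough counts to be tested, 18 fell and 1 rose in papilloma by edgeR's quasi-likelihood test at an adjusted p under 0.05. That is 41.9% lower and 2.33% higher, beside 14.1% lower and 12.0% higher among all 16353 genes tested. The median log2 fold change was -1.44 over the 43 genes and -0.06 over all genes. At an unadjusted p under 0.05 the same fit gave 24 lower and 3 higher, and DESeq2's Wald test gave 19 and 2 at an adjusted p under 0.05. Scaling by total counts alone gave 18 lower and 0 higher, beside 3484 lower and 1015 higher over all genes, where TMM gave 2298 and 1959. Over genes at 10 CPM or more the median of log2 ratios was 0.07 with TMM and -0.35 with total counts. Only differences between the 2 papillomas, 1 residual degree of freedom per gene, inform the error. edgeR pools them in part over genes (mean of 3.81 prior degrees of freedom), so an SE is not set by the gene's own papillomas alone. The single skin and tumour libraries are assumed to vary by as much as the papillomas.

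Among the ligands Wnt5a rose and Wnt2, Wnt3, Wnt5b and Wnt7b fell in papilloma. Wnt5a, which mainly signals without beta-catenin and guides cell polarity and movement (chromosome 14, 29318660 to 29338620, plus strand, mm9), was at 136 CPM in papilloma 1 and 115 CPM in papilloma 2, against 63.2 CPM in skin. Both papillomas lay above skin. The log2 fold change was 0.99 ± 0.21 (± SE; edgeR adjusted p = 0.0312), and the call was lost when libraries were scaled by total counts. Wnt3, a beta-catenin ligand of the hair follicle (chromosome 11, 103635490 to 103679335, plus strand), was at 18.1 CPM in papilloma 1 and 20.5 CPM in papilloma 2, against 52.5 CPM in skin. Both papillomas lay well under skin (-1.44 ± 0.17, edgeR adjusted p = 0.0102). Wnt2 had 0.656 CPM in papilloma 1 and 0.706 CPM in papilloma 2, against 4.16 CPM in skin (-2.60 ± 0.42, edgeR adjusted p = 0.0182). Wnt5b had 1.36 CPM in papilloma 1 and 1.87 CPM in papilloma 2, against 7.10 CPM in skin (-2.12 ± 0.38, edgeR adjusted p = 0.0227). In both genes the papillomas lay close together and far under skin. Wnt5b shares its position with Fbxl14, a gene on the other strand with 1302 counts in skin, and the use of strand is not given. In mSCC-38 and mSCC-20 Fbxl14 had 1547 and 1706 counts where Wnt5b had 0 and 1. Few if any Fbxl14 reads were thus counted as Wnt5b in the cultures. Wnt7b, a ligand of epidermis and hair follicle, had 28.2 CPM in papilloma 1 and 29.9 CPM in papilloma 2, against 44.1 CPM in skin (-0.60 ± 0.14, edgeR adjusted p = 0.0382), and this call was lost with DESeq2's size factors and with DESeq2's test. Wnt4 and Wnt10a did not pass: Wnt4, with 179.6 CPM in papilloma 1 and 135 CPM in papilloma 2, against 89.9 CPM in skin, had an edgeR adjusted p of 0.0681, and Wnt10a, with 33.8 CPM in papilloma 1 and 34.8 CPM in papilloma 2, against 23.8 CPM in skin, one of 0.0528.

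Wnt11 and Wnt10b, which did not pass either, differed between the papillomas. With no filter on low counts edgeR called Wnt11, Wnt10b, Wnt6 and Wnt10a, and DESeq2's test called Wnt11 and Wnt4. Wnt11, a ligand of cell movement, was at 2.30 CPM in papilloma 1 and 8.30 CPM in papilloma 2, against 25.8 CPM in skin (edgeR adjusted p = 0.0689). Wnt10b, a ligand of growing hair follicles, was at 1.97 CPM in papilloma 1 and 4.27 CPM in papilloma 2, against 10.5 CPM in skin (edgeR adjusted p = 0.0615). In both genes papilloma 2, the library with more hair follicle RNA, lay nearer to skin, and the part of hair follicle RNA in this was not tested. Wnt6 showed the same order with 1.73 CPM in papilloma 1 and 3.11 CPM in papilloma 2, against 6.84 CPM in skin (edgeR adjusted p = 0.0673).

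The comparison of tumour with papilloma addresses the step after the benign lesion. Of the 43 tested genes 6 rose and 8 fell in the tumour, 14.0% and 18.6%, beside 11.9% higher and 10.6% lower among all 16353 genes. DESeq2's Wald test also gave 6 and 8, and total-count scaling 6 and 5. The median log2 fold change was -0.33 over the 43 genes and -0.02 over all genes. By the rule of size used below for unreplicated groups, at least 4-fold and 1 CPM or more in the higher group, 1 of 38 genes was higher (Wnt9a) and 4 lower (Wnt3, Wnt16, Wif1 and Lef1), beside 2.73% and 5.07% over all genes. Without papilloma 1 or papilloma 2 the genes higher numbered 0 to 1 and those lower 3 to 5. This comparison shares the papilloma libraries with the one before it.

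Ligands made up 9 of the 14 calls between tumour and papilloma, with 4 higher and 5 lower of 16 tested. The largest fall was that of Wnt3, at 0.214 CPM in the tumour, against 18.1 and 20.5 CPM in papilloma 1 and papilloma 2. The tumour value rests on 9 counts, and the log2 fold change was -6.48 ± 0.27 (edgeR adjusted p = 0.00205). By summed counts per library size it was 91.2-fold (95% interval 47.8 to 200) lower. Wnt9b, which lies beside Wnt3 (chromosome 11, 103588678 to 103611135, minus strand), had 3 counts in the tumour and 60 in both papillomas together, a ratio of 0.0589 (95% interval 0.0118 to 0.181, edgeR adjusted p = 0.0247). Wnt16 fell to 0.261 CPM in the tumour, against 2.95 and 2.97 CPM in papilloma 1 and papilloma 2 (-3.49 ± 0.52, edgeR adjusted p = 0.0143). Wnt3a, the ligand most used to activate beta-catenin in culture, was at 4.46 CPM in the tumour, against 11.1 and 11.1 CPM in papilloma 1 and papilloma 2 (-1.32 ± 0.26, edgeR adjusted p = 0.0282), and this call was lost with total-count scaling. Wnt4, a ligand of epidermis and of gland development, was at 68.8 CPM in the tumour, against 179.6 and 135 CPM in papilloma 1 and papilloma 2 (-1.20 ± 0.25, edgeR adjusted p = 0.0319), a call lost with DESeq2's size factors.

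The 4 ligands that rose in the tumour were Wnt9a, Wnt7b, Wnt5a and Wnt10a. Wnt9a was at 15.9 CPM in the tumour, against 2.86 and 4.31 CPM in papilloma 1 and papilloma 2, the largest rise (2.13 ± 0.33, edgeR adjusted p = 0.016). Wnt7b was at 78.2 CPM in the tumour, against 28.2 and 29.9 CPM in papilloma 1 and papilloma 2 (1.42 ± 0.13, edgeR adjusted p = 0.00534), so that it was lower than skin in the papillomas and higher than both in the tumour. Wnt7b overlaps AU022754, a gene on the other strand with 135 counts in the tumour, against 3294 for Wnt7b itself. Wnt5a, the gene that had risen in papilloma, was at 258 CPM in the tumour, against 136 and 115 CPM in papilloma 1 and papilloma 2 (1.04 ± 0.19, edgeR adjusted p = 0.0245). Wnt10a, a ligand needed for tooth, hair and sweat gland development, was at 60.6 CPM in the tumour, against 33.8 and 34.8 CPM in papilloma 1 and papilloma 2 (0.82 ± 0.14, edgeR adjusted p = 0.0181). In all 4 genes the tumour value lay above both papillomas and above skin.

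**Figure D3:**
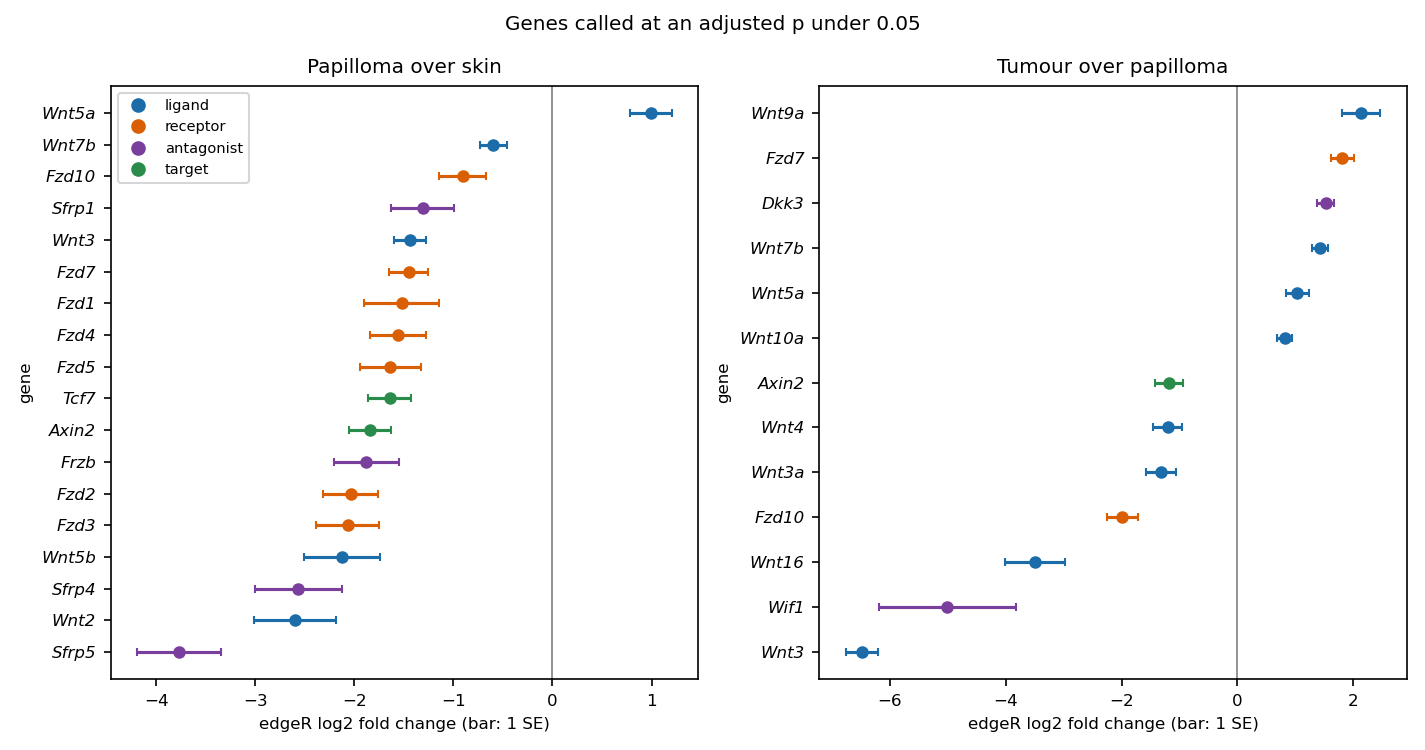
edgeR log2 fold change (horizontal axis, bar 1 SE) of the genes called at an adjusted p under 0.05, papilloma over skin on the left and tumour over papilloma on the right, coloured by role. Sost and Wnt9b are not drawn, since a group held 3 counts or fewer. All called receptors lie left of 0 on the left panel, and Wnt3 is farthest left on the right panel at -6.48.

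Most Frizzled receptors were lower in papilloma than in skin. Of 12 receptors tested 7 fell and 0 rose by edgeR's test, at an unadjusted p under 0.05 also 7 and 0, and likewise 7 and 0 by DESeq2, beside 14.1% lower and 12.0% higher over all genes by edgeR. The genes were Fzd1, Fzd2, Fzd3, Fzd4, Fzd5, Fzd7 and Fzd10. Fzd7, a receptor of stem cells in several epithelia (chromosome 1, 59538992 to 59543799, plus strand), was at 32.1 CPM in papilloma 1 and 40.2 CPM in papilloma 2, against 99.1 CPM in skin (-1.45 ± 0.19, edgeR adjusted p = 0.0134). Fzd3, a receptor of cell polarity, was at 8.20 CPM in papilloma 1 and 13.7 CPM in papilloma 2, against 46.2 CPM in skin (-2.07 ± 0.32, edgeR adjusted p = 0.0173), and Fzd2 at 10.7 CPM in papilloma 1 and 16.6 CPM in papilloma 2, against 56.4 CPM in skin (-2.04 ± 0.28, edgeR adjusted p = 0.0136). Skin lay above both papillomas in each. Fzd5, Fzd4 and Fzd1 had log2 fold changes of -1.64, -1.56 and -1.52. Fzd5 had 16.8 CPM in papilloma 1 and 28.0 CPM in papilloma 2, against 70.0 CPM in skin, and Fzd4 had 9.42 CPM in papilloma 1 and 14.3 CPM in papilloma 2, against 35.1 CPM in skin. Fzd1 was at 37.97 CPM in papilloma 1 and 71.0 CPM in papilloma 2, against 157 CPM in skin. Fzd10 was at 33.0 CPM in papilloma 1 and 46.9 CPM in papilloma 2, against 75.1 CPM in skin (-0.91 ± 0.24). The last 2 were the weakest calls (edgeR adjusted p = 0.0445 for Fzd1 and 0.0497 for Fzd10), and neither passed with DESeq2's size factors. In all 7 genes papilloma 2 lay nearer to skin than papilloma 1, as the summed hair follicle genes did. Most pathway genes, 29 of 36 with enough counts, were higher in papilloma 2 than in papilloma 1. The part of hair follicle RNA in the receptor values was not tested.

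Fzd6 and the co-receptors did not pass the test in either comparison. Fzd6, a receptor known for orienting hair follicles, was at 132 CPM in skin, 149 CPM in papilloma 1, 148 CPM in papilloma 2 and 158 CPM in the tumour. Lrp5 was at 97.3 CPM in skin, 164 CPM in papilloma 1, 124 CPM in papilloma 2 and 108 CPM in the tumour (edgeR adjusted p = 0.138 for papilloma against skin). Lrp6 was at 141 CPM in skin, 80.1 CPM in papilloma 1, 108 CPM in papilloma 2 and 127 CPM in the tumour (edgeR adjusted p = 0.13). Per length, Fzd6 was the most abundant receptor of the class in both papillomas, the tumour and both cultures, and Fzd1 in skin. Fzd1 and Fzd6 stood at 43.2 and 38.5 RPKM in skin. Fzd8 and Fzd9 were low in every biopsy: Fzd8 was at 8.59 CPM in skin, 7.45 CPM in papilloma 1, 7.63 CPM in papilloma 2 and 13.3 CPM in the tumour, and Fzd9 stayed at or under 1.35 CPM.

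Between tumour and papilloma only Fzd7 rose and only Fzd10 fell among the 12 receptors by edgeR's test. That is 8.33% each way, no more than the 11.9% higher and 10.6% lower over all genes. Fzd7 was at 127 CPM in the tumour, against 32.1 and 40.2 CPM in papilloma 1 and papilloma 2 (1.81 ± 0.19, edgeR adjusted p = 0.00688), a tumour value above that of skin. Fzd10 was at 10.1 CPM in the tumour, against 33.0 and 46.9 CPM in papilloma 1 and papilloma 2 (-1.98 ± 0.27, edgeR adjusted p = 0.0114), so that skin was highest and the tumour lowest of the biopsies. Fzd1, with 93.3 CPM in the tumour, against 37.97 and 71.0 CPM in papilloma 1 and papilloma 2, did not pass (edgeR adjusted p = 0.208).

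Of 11 secreted antagonists tested 5 fell and 0 rose in papilloma, beside 14.1% lower and 12.0% higher over all genes. They were Sfrp1, Sfrp4, Sfrp5, Frzb and Sost. At an unadjusted p under 0.05 edgeR gave 6 lower and 0 higher, and DESeq2 gave 5 and 0. Sfrp1, a decoy that binds Wnt proteins (chromosome 8, 24521975 to 24560104, plus strand), was at 67.7 CPM in papilloma 1 and 111 CPM in papilloma 2, against 223 CPM in skin. Its log2 fold change was -1.31 ± 0.32 (edgeR adjusted p = 0.0432), a call lost with DESeq2's size factors. Sfrp5 had the largest fold of the antagonists with counts in every biopsy, 0.422 CPM in papilloma 1 and 0.530 CPM in papilloma 2, against 6.60 CPM in skin (-3.77 ± 0.42, edgeR adjusted p = 0.00976). Sfrp4 was at 2.25 CPM in papilloma 1 and 4.52 CPM in papilloma 2, against 20.2 CPM in skin (-2.56 ± 0.44, edgeR adjusted p = 0.0208). Frzb, also of the Sfrp family, was at 2.20 CPM in papilloma 1 and 2.40 CPM in papilloma 2, against 8.51 CPM in skin (-1.88 ± 0.33, edgeR adjusted p = 0.021). Sost, which encodes sclerostin, a co-receptor blocker made by bone cells, had 0 counts in papilloma 1 and 1 count in papilloma 2, against 38 counts in skin. That is a 37.95-fold (95% interval 6.41 to 1538) lower value per library size (edgeR adjusted p = 0.0322). DESeq2 gave no adjusted p for Sost.

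Sostdc1, Dkk3, Dkk2 and Sfrp2 did not pass between papilloma and skin. Sostdc1, which restrains both BMP and Wnt signals in hair and tooth development, was at 93.0 CPM in skin, 62.6 CPM in papilloma 1, 83.9 CPM in papilloma 2 and 115 CPM in the tumour. Dkk3, a divergent Dkk family member, was at 53.2 CPM in skin, 52.0 CPM in papilloma 1, 52.1 CPM in papilloma 2 and 150.3 CPM in the tumour. The papillomas and skin lay close together in Dkk3, and the sign of its fold change turned between scalings (-0.03 with TMM). The tumour lay above all other biopsies in Dkk3 (1.52 ± 0.15 against papilloma, edgeR adjusted p = 0.00595). Dkk2 was at 9.96 CPM in skin, 6.56 CPM in papilloma 1, 5.72 CPM in papilloma 2 and 2.90 CPM in the tumour, and did not pass against papilloma in the tumour either (edgeR adjusted p = 0.0656), though edgeR without the filter on low counts called it there. Sfrp2, a Wnt decoy mostly made by fibroblasts, was at 10.4 CPM in skin, 20.6 CPM in papilloma 1, 13.0 CPM in papilloma 2 and 31.6 CPM in the tumour (edgeR adjusted p = 0.0954 for tumour against papilloma). The 10 fibroblast genes used as markers summed to 3651 CPM in skin, 5323 CPM in papilloma 1, 4312 CPM in papilloma 2 and 4666 CPM in the tumour. Collagen genes made up most of these sums, and single genes went both ways. By edgeR's test 1 rose and 2 fell in papilloma against skin, and 0 rose and 3 fell in the tumour against papilloma. Dcn, which fell in both, was at 859 CPM in skin, 212 CPM in papilloma 1, 270 CPM in papilloma 2 and 83.4 CPM in the tumour. Fbln1, which rose in papilloma, was at 47.7, 85.8, 74.6 and 78.6 CPM in the same order. The part of fibroblast RNA in the Sfrp and Frzb values was not tested. Dkk1, the best known co-receptor blocker, and Dkk4 were at or under 0.302 and 0.141 CPM in every library.

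Wif1, which binds and sequesters Wnt ligands, showed the widest range of the antagonists that had counts in every biopsy. It was at 30.0 CPM in skin, 2.58 CPM in papilloma 1, 11.2 CPM in papilloma 2 and 0.214 CPM in the tumour. Papilloma 2 held 4.34 times the value of papilloma 1, and Wif1 did not pass between papilloma and skin (edgeR adjusted p = 0.103), though DESeq2's test called it. The tumour value rests on 9 counts and was lower than papilloma (-5.005 ± 1.18, edgeR adjusted p = 0.0431). That call was lost with DESeq2's size factors and with total-count scaling. The log2 ratio with 0.5 CPM added to each side was -3.37 over both papillomas, -4.03 when papilloma 1 was left out and -2.11 when papilloma 2 was.

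All 4 genes of the target and nuclear class were highest in skin among the 6 libraries. Axin2, the most widely used readout of beta-catenin signalling, which encodes a scaffold of the destruction complex (chromosome 11, 108781664 to 108812095, plus strand), was at 54.5 CPM in skin, 13.0 CPM in papilloma 1, 17.3 CPM in papilloma 2 and 6.69 CPM in the tumour. The papillomas lay well under skin and the tumour under both. Axin2 fell in papilloma against skin (-1.84 ± 0.22, edgeR adjusted p = 0.0104) and in the tumour against papilloma (-1.18 ± 0.24, edgeR adjusted p = 0.0301). The second call was lost with total-count scaling. Tcf7, which encodes the DNA-binding factor TCF1 (chromosome 11, 52066107 to 52095752, minus strand), was at 33.6 CPM in skin, 9.47 CPM in papilloma 1, 11.9 CPM in papilloma 2 and 10.6 CPM in the tumour. It fell in papilloma (-1.64 ± 0.22, edgeR adjusted p = 0.0131), and the tumour lay between the papillomas.

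Lef1 and Nkd1 had low values in papilloma 1 and intermediate ones in papilloma 2. Lef1, a DNA-binding partner of beta-catenin in hair matrix cells (chromosome 3, 130813390 to 130926249, plus strand), was at 25.9 CPM in skin, 0.891 CPM in papilloma 1, 7.35 CPM in papilloma 2 and 0.475 CPM in the tumour. Papilloma 2 held 8.25 times the value of papilloma 1, and neither comparison passed (edgeR adjusted p = 0.115 against skin, and 0.161 for the tumour against papilloma). Nkd1, a feedback inhibitor that acts on the Dishevelled protein, was at 16.6 CPM in skin, 2.25 CPM in papilloma 1, 6.32 CPM in papilloma 2 and 2.04 CPM in the tumour (edgeR adjusted p = 0.0694 for papilloma against skin). DESeq2's test and edgeR without the filter called Nkd1 in that comparison. As a share of the skin library, Lef1 was at 3.44% in papilloma 1, 28.4% in papilloma 2 and 1.83% in the tumour. The summed hair follicle genes were at 0.956%, 28.9% and 0.819% in the same order, and melanocyte genes at 2.95%, 34.4% and 1.99%. Summed T cell genes (6) were at 37.2%, 24.4% and 71.4%. Of these, Cd8a and Cd4 lay above skin in both papillomas and the other genes under it. Axin2 was at 23.8%, 31.7% and 12.3%, and Tcf7 at 28.2%, 35.5% and 31.6%. The part of hair follicle, melanocyte or T cell RNA in these values was not tested.

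**Figure D4:**
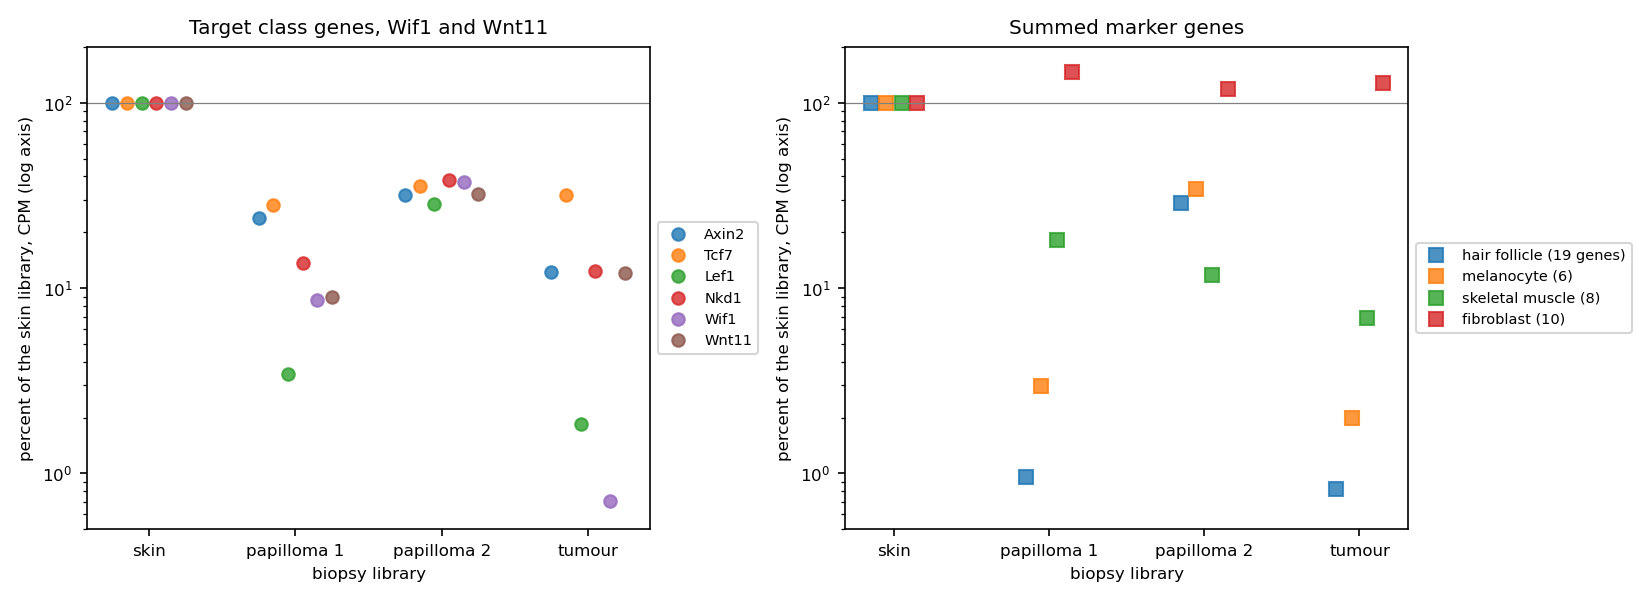
Level in each biopsy as a percent of the skin library (log axis), for the target class, Wif1 and Wnt11 (left) and for summed marker genes of 4 cell types (right); points are shifted sideways for legibility. Papilloma 2 lies above papilloma 1 for all 6 genes on the left and for the hair follicle and melanocyte markers on the right.

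The papillomas also differed from each other over the class as a whole. Of 36 pathway genes with at least 60 counts in the papillomas together, 29 were higher in papilloma 2 and 7 in papilloma 1. The median ratio of papilloma 2 to papilloma 1 was 1.33 over these genes and 0.981 over 13495 genes of the table with as many counts. With that median under 1, no more of the 13495 genes lay higher in papilloma 2 than lower. Their exact share was not counted. By the rule of size, 7 of 40 pathway genes were lower in papilloma than in skin and 0 higher, beside 5.09% lower and 3.26% higher over all genes. That count was 2 without papilloma 1 and 14 without papilloma 2. With total-count scaling it was also 14.

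Promoter sequence is shown for 4 genes, since all 4 target genes were highest in skin and several antagonists and ligands were lower with them in papilloma. The letters are the 250 bases before a gene start listed by RefSeq on build GRCm38.p6, read in the direction of the gene, with the core of the TCF and LEF motif, CTTTGA on either strand (TCAAAG when read from the other), in capitals. Axin2 is shown as the reference target, Lef1 at the farthest downstream of its 4 listed starts, and Frzb and Wnt5b as called genes that hold the core within 100 bases of a start. Fzd1, also called lower in papilloma, holds it at 242 bases and is not shown. Wnt11, at 50 bases and as the longer CTTTGAT, and Dkk1, at 174 and 117 bases, hold it too. They did not pass edgeR's test in either comparison and are not shown. Where the longer CTTTGAT occurs, it overlaps the core.
Axin2, chr11:108920099-108920348, plus strand: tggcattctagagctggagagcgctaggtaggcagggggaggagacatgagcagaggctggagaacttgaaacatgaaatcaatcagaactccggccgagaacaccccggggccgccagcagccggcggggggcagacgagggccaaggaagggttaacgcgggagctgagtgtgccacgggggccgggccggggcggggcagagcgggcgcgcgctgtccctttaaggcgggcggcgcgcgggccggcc
Lef1, chr3:131156044-131156293, plus strand: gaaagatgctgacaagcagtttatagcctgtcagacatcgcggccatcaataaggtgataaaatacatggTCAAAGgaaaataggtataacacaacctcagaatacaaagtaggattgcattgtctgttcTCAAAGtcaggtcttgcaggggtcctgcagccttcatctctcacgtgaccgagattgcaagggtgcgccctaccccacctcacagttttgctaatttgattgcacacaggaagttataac
Frzb, chr2:80447397-80447646, minus strand: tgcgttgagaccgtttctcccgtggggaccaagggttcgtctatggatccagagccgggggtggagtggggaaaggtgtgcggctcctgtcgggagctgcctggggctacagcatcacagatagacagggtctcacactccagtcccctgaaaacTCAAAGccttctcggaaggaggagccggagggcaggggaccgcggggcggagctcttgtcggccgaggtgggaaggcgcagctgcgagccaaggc
Wnt5b, chr6:119449387-119449636, minus strand: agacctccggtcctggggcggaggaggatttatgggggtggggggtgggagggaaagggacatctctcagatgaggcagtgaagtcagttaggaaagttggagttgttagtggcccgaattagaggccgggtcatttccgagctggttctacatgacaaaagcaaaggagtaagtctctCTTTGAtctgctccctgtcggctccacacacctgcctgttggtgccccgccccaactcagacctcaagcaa
The Lef1 sequence holds the core at 180 and 120 bases before the start, Frzb at 95 and Wnt5b at 71, the last as CTTTGAT. These letters were not found in the Axin2 window, in the other 3 Lef1 windows, in the other 2 Wnt5b windows, or in those of Nkd1 and Tcf7. Of 39 windows listed for 32 of the 47 genes, 6 held the core, 15.4%, beside 13.8% of all 32851 windows in the table. CTTTGAT was in 2 of the 39, 5.13%, beside 3.21% of all. A match describes letters and not a binding site.

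Other genes of the pathway, 71 of them from lists of ligand processing, co-receptors, inhibitors, intracellular components, targets and cell polarity, included 70 that could be tested. In papilloma 7 rose and 21 fell against skin (median log2 fold change -0.58, beside -0.06 over all genes), and in the tumour 7 rose and 16 fell against papilloma (-0.08, beside -0.02). Over all 16353 genes the shares were 12.0% higher and 14.1% lower in papilloma, and 11.9% higher and 10.6% lower in the tumour, so the rises were near those shares; the counts of single lists below are small and stand beside the same shares. Rnf43 stands in both the receptor and the target list. The R-spondins, secreted agonists that keep Frizzled receptors at the cell surface, and their Lgr receptors made up the falls of their list in papilloma, which had 1 rise and 6 falls of 10 and, in the tumour against papilloma, 1 rise and 3 falls. Rspo1, Rspo3, Rspo4, Lgr4, Lgr5 and Lgr6 fell in papilloma, and Lgr4 had a log2 ratio of -1.93, or -1.52 without papilloma 1 and -2.52 without papilloma 2. Lgr5, a marker of hair follicle stem cells, was at 77.9 CPM in skin, 5.34 CPM in papilloma 1, 17.7 CPM in papilloma 2 and 3.73 CPM in the tumour (-2.74 ± 0.64 for papilloma against skin, edgeR adjusted p = 0.0392). Its log2 ratio was -2.70 over both papillomas, -2.11 when papilloma 1 was left out and -3.75 when papilloma 2 was. Rspo3, made by dermal papilla cells, was at 9.58 CPM in skin, 0.141 CPM in papilloma 1, 1.09 CPM in papilloma 2 and 0.142 CPM in the tumour (-3.88 ± 0.87, edgeR adjusted p = 0.0364), with a log2 ratio of -3.17, or -2.66 without papilloma 1 and -3.98 without papilloma 2. Rspo1 had 1 count in the tumour and 120 in the papillomas together, 102-fold (95% interval 17.9 to 4055) lower (edgeR adjusted p = 0.00597).

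Lgr6 fell in papilloma and rose in the tumour. This receptor, which marks stem cells above the hair bulge, was at 21.9 CPM in skin, 2.81 CPM in papilloma 1, 4.94 CPM in papilloma 2 and 78.3 CPM in the tumour. It fell in papilloma (-2.48 ± 0.32, edgeR adjusted p = 0.0127) and rose in the tumour against papilloma (4.32 ± 0.33, edgeR adjusted p = 0.00364). Porcn, the enzyme that attaches the lipid to Wnt proteins, was at 20.4 CPM in skin, 38.3 CPM in papilloma 1, 46.4 CPM in papilloma 2 and 65.0 CPM in the tumour, and rose in papilloma (1.06 ± 0.18, edgeR adjusted p = 0.021). Rnf43, a target that removes Frizzled receptors from the surface, was at 25.1 CPM in skin, 14.2 CPM in papilloma 1, 15.9 CPM in papilloma 2 and 3.01 CPM in the tumour (-2.33 ± 0.24 for tumour against papilloma, edgeR adjusted p = 0.00606).

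Of 8 other genes known as targets, 3 rose and 2 fell in papilloma, beside 12.0% higher and 14.1% lower over all genes. Ccnd1, the cyclin D1 gene, rose to 481 CPM in papilloma 1 and 506 CPM in papilloma 2, against 145 CPM in skin (1.77 ± 0.26, edgeR adjusted p = 0.0158) and reached 1419 CPM in the tumour. Cd44 rose to 837 CPM in papilloma 1 and 783 CPM in papilloma 2, against 304 CPM in skin (1.42 ± 0.26, edgeR adjusted p = 0.0241). Myc rose to 88.5 CPM in papilloma 1 and 99.7 CPM in papilloma 2, against 57.0 CPM in skin (0.73 ± 0.19, edgeR adjusted p = 0.0498). The tumour held 1139 CPM of Cd44 and 184 CPM of Myc. Bambi fell to 22.3 CPM in papilloma 1 and 27.8 CPM in papilloma 2, against 73.0 CPM in skin (-1.54 ± 0.18, edgeR adjusted p = 0.0103). Tnfrsf19, a receptor gene of the hair follicle, was at 133 CPM in skin, 34.0 CPM in papilloma 1, 49.4 CPM in papilloma 2 and 3.42 CPM in the tumour, and fell in both comparisons (edgeR adjusted p = 0.0158 against skin, and 0.00462 for the tumour against papilloma). Among 26 intracellular components 1 rose and 6 fell in papilloma, and Ctnnb1, which encodes beta-catenin, was at 894 CPM in skin, 966 CPM in papilloma 1, 1037 CPM in papilloma 2 and 1216 CPM in the tumour (edgeR adjusted p = 0.648 for papilloma against skin). Of 10 other receptors and co-receptors 4 fell in papilloma, and of 5 other extracellular inhibitors 2 fell. In the tumour against papilloma the same lists had, in that order, 1 rise and 4 falls, 2 rises and 3 falls, and 1 rise and 2 falls, and the target list had 2 of each.

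Tumour and skin, with 1 library each, were compared by the rule of size and without a p-value. Of 40 pathway genes at 1 CPM or more in either, 13 were at least 4-fold lower in the tumour and 1 higher, beside 9.97% lower and 5.13% higher over all genes. The gene higher was Wnt5a, at 258 CPM in the tumour and 63.2 CPM in skin, 4.09-fold (95% interval 3.93 to 4.25) higher by counts. It lay just inside the rule, and with DESeq2's size factors or total counts no gene did. The farthest falls were those of Wnt3, 246-fold (95% interval 129 to 538) lower, Wif1, 140.3-fold (95% interval 73.7 to 307) lower, and Lef1, 54.5-fold (95% interval 35.1 to 89.5) lower. Axin2, Nkd1, Wnt11, Wnt10b, Wnt5b, Fzd3, Fzd10, Frzb, Sfrp4 and Sfrp5 made up the other 10, with log2 ratios from -3.26 for Sfrp4 to -2.32 for Wnt5b.

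The antagonists Sostdc1, Dkk3 and Sfrp1, the receptors Fzd1, Fzd7 and Fzd8 and the target Axin2 were far higher in mSCC-38 than in mSCC-20. By the same rule of size, without a p-value, 11 of 26 pathway genes at 1 CPM or more were higher in mSCC-38 than in mSCC-20 and 3 lower, 42.3% and 11.5%, beside 7.89% and 4.38% over all genes. The 12 antagonists summed to 191 RPKM in mSCC-38 and 0.460 RPKM in mSCC-20, against 193 RPKM in skin and 154 RPKM in the tumour. Sostdc1 was at 222 CPM in mSCC-38 and 0.260 CPM in mSCC-20, 855-fold (95% interval 434 to 1982) higher in mSCC-38. It alone made up 71.6% of the antagonist RPKM of that line, and it was higher there than in any biopsy. Dkk3 was at 145 CPM in mSCC-38 and 0.584 CPM in mSCC-20, 249-fold (95% interval 157 to 419.9) higher, and Sfrp1 at 29.8 CPM in mSCC-38 and 0.260 CPM in mSCC-20, 115-fold (95% interval 58.0 to 266) higher. The other 9 antagonists were at or under 0.121 CPM in both lines.

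**Figure D5:**
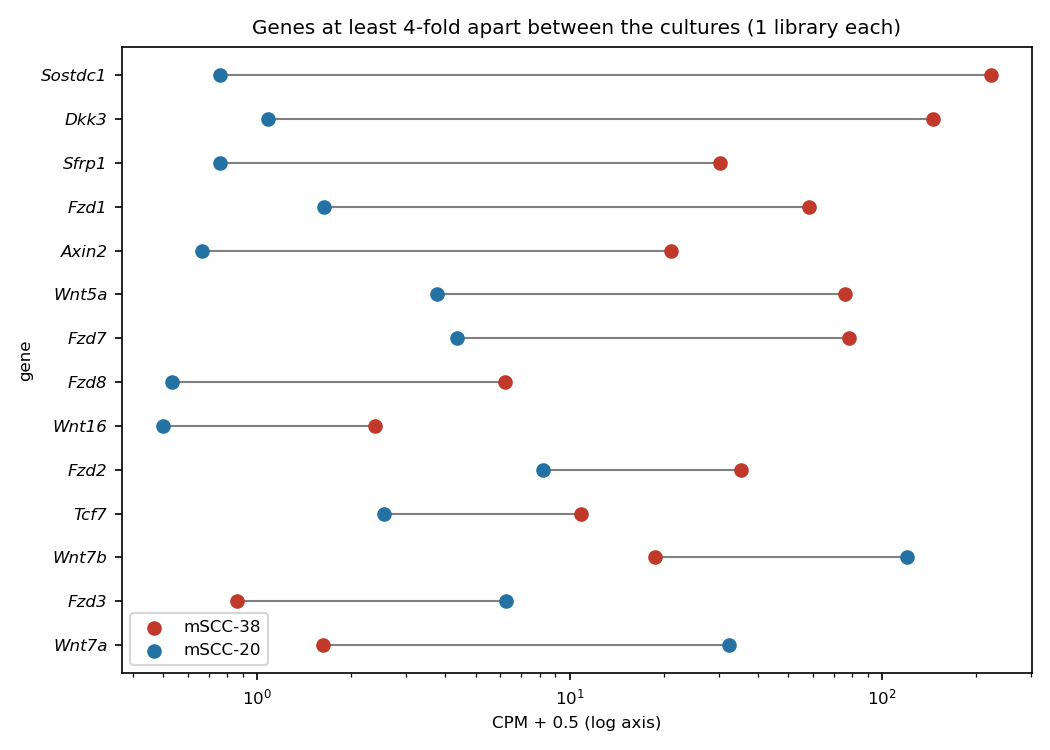
CPM + 0.5 (log axis) in mSCC-38 (red) and mSCC-20 (blue) of the 14 genes at least 4-fold apart, with 1 library for each line. The upper 11 genes are higher in mSCC-38, led by Sostdc1, and Wnt7b, Fzd3 and Wnt7a are higher in mSCC-20.

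Axin2 was at 20.6 CPM in mSCC-38 and 0.162 CPM in mSCC-20, 127-fold (95% interval 54.1 to 392.2) higher in mSCC-38, the mSCC-20 value resting on 5 counts. The mSCC-38 value lay above both papillomas and the tumour and under skin. Tcf7 was at 10.4 CPM in mSCC-38 and 2.05 CPM in mSCC-20, 5.07-fold (95% interval 3.87 to 6.75) higher. Lef1 was low in both lines, at 0.483 CPM in mSCC-38 and 0.130 CPM in mSCC-20. Nkd1 had 0 counts in mSCC-38, which allows up to 0.0905 CPM, and 0.0974 CPM in mSCC-20, so that it was near the limit of counting in both. Of 54 other pathway genes at 1 CPM or more, 12 were higher in mSCC-38 and 3 lower by the rule of size. Over all genes the shares were 7.89% and 4.38%. Tle4 was lower, at 2.59 CPM in mSCC-38 and 26.5 CPM in mSCC-20. Lgr5 was too, at 0.0302 CPM in mSCC-38 and 1.85 CPM in mSCC-20. Rnf43, the last of the 3, had 0 counts in mSCC-38 and 1.72 CPM in mSCC-20. Other extracellular inhibitors were higher in mSCC-38 in 4 of 4 cases at 1 CPM or more. They were Igfbp4, 303-fold (95% interval 219.5 to 430.2) higher, Notum, a lipase that inactivates Wnt proteins, at 11.4 CPM in mSCC-38 and 0.0649 CPM in mSCC-20, Apcdd1, at 64.1 CPM in mSCC-38 and 0.844 CPM in mSCC-20, and Tpbg, at 266 CPM in mSCC-38 and 56.9 CPM in mSCC-20. Lgr6 was at 27.7 CPM in mSCC-38 and 0.162 CPM in mSCC-20, 171-fold (95% interval 72.8 to 527) higher.

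Ligands and receptors went both ways between the lines. Wnt5a was at 75.3 CPM in mSCC-38 and 3.25 CPM in mSCC-20, 23.2-fold (95% interval 18.99 to 28.6) higher in mSCC-38. Wnt7a, a ligand of epidermis, was at 1.12 CPM in mSCC-38 and 31.8 CPM in mSCC-20, 28.5-fold (95% interval 20.5 to 40.7) lower in mSCC-38, and no biopsy reached more than 1.25 CPM of it. Wnt7b was at 18.3 CPM in mSCC-38 and 119.8 CPM in mSCC-20, 6.54-fold (95% interval 6.003 to 7.14) lower. Wnt16 was at 1.87 CPM in mSCC-38 and had 0 counts in mSCC-20, higher in mSCC-38 with a lower 95% limit of 15.2-fold. Wnt10a at 107 CPM in mSCC-38 and 69.8 CPM in mSCC-20, Wnt4 at 49.5 CPM in mSCC-38 and 56.9 CPM in mSCC-20 and Wnt10b at 8.03 CPM in mSCC-38 and 8.34 CPM in mSCC-20 were less than 4-fold apart. Wnt9a, at 31.9 CPM in mSCC-38 and 8.25 CPM in mSCC-20, lay just outside the rule. Of the receptors, Fzd1 was at 58.0 CPM in mSCC-38 and 1.14 CPM in mSCC-20, 51.1-fold (95% interval 36.6 to 73.6) higher, and Fzd7 at 78.0 CPM in mSCC-38 and 3.86 CPM in mSCC-20, 20.2-fold (95% interval 16.8 to 24.5) higher. Fzd2 and Fzd8 were also higher, at 34.7 CPM in mSCC-38 and 7.73 CPM in mSCC-20 and at 5.70 CPM in mSCC-38 and 0.0325 CPM in mSCC-20. Fzd3, at 0.362 CPM in mSCC-38 and 5.75 CPM in mSCC-20, was 15.9-fold (95% interval 8.86 to 31.3) lower. Fzd6, Lrp5 and Lrp6, present in both lines, were at 289 CPM in mSCC-38 and 86.5 CPM in mSCC-20, at 112 CPM in mSCC-38 and 88.0 CPM in mSCC-20 and at 237 CPM in mSCC-38 and 133 CPM in mSCC-20. Fzd10, prominent in skin, was at or under 0.0974 CPM in both. The 10 fibroblast markers summed to 441 CPM in mSCC-38 and 48.9 CPM in mSCC-20, and the 7 epithelial markers to 9007 and 17742 CPM. Few genes carried these sums. Fbln1 was at 175 CPM in mSCC-38 and 13.8 CPM in mSCC-20, and Col1a1 at 123 and 2.18 CPM. Col1a2, at 2.78 and 2.18 CPM, and Lum, at 0.181 and 0.130 CPM, differed little, and Dpt alone was lower in mSCC-38. Krt5 and Krt14 made up most of the epithelial sums, which show little of the low Cdh1, Epcam and Esrp1 in mSCC-38. The part of these markers in the differences between the lines was not tested.

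Ligands that were low everywhere were Wnt1, Wnt2b, Wnt8a, Wnt8b and Wnt9b, at or under 1.52 CPM in all 6 libraries. The highest was Wnt2b in the tumour, which did not pass against papilloma (edgeR adjusted p = 0.1). Wnt1 had counts in skin and papilloma 2 only, at most 1 in a library, and Wnt8b had 1 count in all. At this depth no difference between groups was detectable for Wnt1 and Wnt8b.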

How the data were processed

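Total RNA was sequenced from 4 biopsies and 2 cultures, after library preparation with a small RNA kit for SOLiD, per the labels' protocols. The authors deposited 1 table of whole raw counts and RPKM values per RefSeq gene model, per the file headers. Per the submitters' processing notes, reads were placed on mm9. How they were aligned and counted, and whether strand was used, is not given in the sources used here. Reads of closely similar family members such as Fzd1, Fzd2 and Fzd7 may therefore be shared. The deposited RPKM values imply totals of 99.2% to 99.6% of the summed counts.

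edgeR 4.0.16 (quasi-likelihood test, limma 3.58.1, R 4.3.3) was fitted to the 4 biopsies with TMM scaling and the default filter by group, on 16353 genes (common dispersion 0.0773). Adjustment was by Benjamini and Hochberg over all genes. The SE was worked back from the F statistic. CPM used TMM factors over all 6 libraries (0.848 to 1.20). Log2 ratios had 0.5 CPM added to each side, and count ratios carry 95% intervals by the exact Clopper-Pearson method. DESeq2 1.42.0 served as an alternative. Tested on simulated data for papilloma against skin (15950 genes), the edgeR script called 62% of 100 genes altered 4-fold, and 90% of 100 altered 16-fold. Of its 158 calls there, 6 were false. No other genes were altered in the simulation, and many more were called in the data, so these rates may not hold for the data. Genes given with per-library values reached 10 CPM in a library, were called, or were 4-fold apart between the cultures; others are summarised. The members and lists were chosen with earlier results of these data known.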

Additional observations from a re-analysis of the deposited data

How the results depend on the processing

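Of 19 calls for papilloma against skin, 14 were kept by every alternative that gave an adjusted p, and of 14 calls for tumour against papilloma 10 were; the alternatives were DESeq2's size factors, total counts alone, no filter on low counts, DESeq2's Wald test and a fit of all 6 libraries. The 5 lost were Fzd1, Fzd10, Sfrp1, Wnt5a and Wnt7b, and the 4 lost were Axin2, Wif1, Wnt3a and Wnt4. The cause was not tested. For papilloma against skin, rises among pathway genes numbered 0 with total counts, 2 with no filter and 2 with DESeq2, and over all genes total counts gave 1015 higher and 3484 lower. For tumour against papilloma, total counts gave 5 lower. No filter added 5 calls in the first comparison and 2 in the second. By the rule of size, genes lower in papilloma numbered 14 with total counts, 4 with 1 CPM added, and 2 to 14 when a papilloma was left out. In the tumour against papilloma, genes higher numbered 0 with DESeq2's size factors, 0 with 1 CPM added and 0 to 1 with a papilloma left out, and genes lower numbered 2 with 1 CPM added and 1 with a minimum of 10 CPM. In the tumour against skin, genes higher numbered 0 with DESeq2's size factors, 0 with total counts and 2 with 0.1 CPM added. Between the cultures, genes lower in mSCC-38 numbered 5 with 0.1 CPM added. Among genes that did not pass, the log2 fold change turned sign for Wnt3a (-0.19) and Fzd6 (-0.25) in papilloma against skin and for Tcf7 (0.11) in tumour against papilloma with total counts, and for Dkk3 (0.0040 with DESeq2's size factors and 0.0040 with its test). Without 1 papilloma no residual degree of freedom remains, so calls could not be tested that way. No paired analysis was made, since the labels do not link libraries to animals and only papilloma has more than 1 library. Depth limits statements on genes under about 3 counts per library.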

Other observations

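Of 12 genes listed for Wnt signalling without beta-catenin, most of them for planar cell polarity, 2 rose and 1 fell in papilloma against skin by edgeR's test, beside 12.0% higher and 14.1% lower over all genes. The fall was that of Nfatc1, a transcription factor of the calcium branch and not a polarity gene. In the tumour against papilloma 3 fell, beside 10.6% lower over all genes. Daam1, a formin that links Dishevelled to actin, was at 132 CPM in skin, 422 CPM in papilloma 1, 297 CPM in papilloma 2 and 113 CPM in the tumour. It rose in papilloma (1.45 ± 0.30, edgeR adjusted p = 0.0306) and fell in the tumour against papilloma (-1.68 ± 0.30, edgeR adjusted p = 0.0231). Celsr2, an adhesion receptor of the polarity system, was at 291 CPM in skin, 245 CPM in papilloma 1, 269 CPM in papilloma 2 and 139.6 CPM in the tumour, and fell in the tumour against papilloma (edgeR adjusted p = 0.0445). In the cultures it was at 3.02 CPM in mSCC-38 and 3.57 CPM in mSCC-20. Prickle2 was at 19.2 CPM in mSCC-38 and 0.130 CPM in mSCC-20, 148-fold (95% interval 57.6 to 546) higher in mSCC-38.

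The intracellular inhibitor gene Nkd2 was at 61.1 CPM in skin, 4.55 CPM in papilloma 1, 21.8 CPM in papilloma 2 and 48.5 CPM in the tumour, and did not pass in either comparison (edgeR adjusted p = 0.103 and 0.163).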
